A study of Mus musculus with 20 samples.

Results

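The comparison described here is the uterus of mice given the progesterone and glucocorticoid receptor antagonist RU486 (mifepristone), the implantation failure (IF) group, against the uterus of untreated pregnant mice, the control group. It takes in 10 of the 20 libraries of the series, 5 from control and 5 from IF mice, chosen by their titles. All 10 came from WT females of the B6D2F1 hybrid that were 8 to 12 weeks old and had been mated, with the morning of the vaginal plug counted as day 0.5. IF mice received 3 mg/kg RU486, a low dose, under the skin at 9:00 on day 3.5, and the uterus was collected at 18:00 on the same day, before embryos attach. Control mice had no treatment, and the sources used here name no injection of vehicle for them, so the drug and the injection cannot be told apart. The other 10 libraries were also from RU486-treated mice, which in addition had blood mononuclear cells (the PBMC and PBMC-hCG groups) placed in the uterus on day 1.5. They entered the fit for its estimate of the spread between mice, and a gene also had to be above 0 in them to be tested. RNA with a poly(A) tail was sequenced from 1 uterine horn of each mouse, so the values mix epithelium, glands, stroma, muscle, vessels and blood cells.

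In the mouse, progesterone from the ovary prepares the uterus to receive the embryo. Acting through its receptor, it induces Indian hedgehog and other signals in the luminal epithelium and a transcription factor programme in the stroma, and it restrains the response of the epithelium to estrogen and the contraction of the uterine muscle. RU486 occupies the progesterone receptor and, with it, the glucocorticoid receptor, which binds nearly the same DNA word.

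Markers of epithelium, stroma and smooth muscle were present in all 10 mice, although these markers are not particular to the uterus. Levels are in TPM, a measure scaled to transcript length and to the total of each library. The 12 markers of epithelium summed to 1116 to 2009 TPM in control and 1483 to 1933 TPM in IF, the 12 markers of stroma to 6959.7 to 12471 and 11642 to 13889.8 TPM, and the 10 markers of smooth muscle to 6284 to 11592 and 6331 to 7804 TPM. Of 10 genes of the early embryo, 8 were not above 0 in every library and went untested, and the sum over all 10 did not exceed 18.9 TPM in any mouse. The 7 fat markers summed to 12.9 to 498 TPM in control and 23.3 to 132 TPM in IF. The 10 ovary and oviduct markers summed to 23.0 to 30.8 TPM in control and 13.6 to 28.6 TPM in IF. Mitochondrial genes made up 4.36% to 5.23% of the TPM total of a library, and 22784 to 24097 genes were above 0. A TPM table does not keep the read depth, which is therefore unknown.

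Libraries within a group were not alike. Control replicate 2 stood apart from the other 4 controls, and IF replicate 3 differed from the other IF mice for part of the same genes. Prap1, which encodes a secreted proline-rich acidic protein of the uterine epithelium, was at 3.74, 4516, 5.10, 2.93 and 339.6 TPM in control replicates 1 to 5 and at 18.9, 44.6, 427, 34.2 and 86.2 TPM in IF replicates 1 to 5. Prss28, an implantation serine proteinase of the glands, was at 79.4, 4739, 53.3, 90.3 and 1206 TPM in control and at 348, 316, 1686, 329.6 and 941 TPM in IF. Both genes were therefore highest in control replicate 2, followed within control by replicate 5, and in IF they were highest in replicate 3. Indian hedgehog, Ihh, ran the other way, at 47.4, 4.83, 39.4, 39.5 and 12.9 TPM in control and at 53.4, 39.7, 8.02, 34.9 and 48.5 TPM in IF. Lif, the leukaemia inhibitory factor that glands secrete before implantation, was at 22.2, 0.976, 13.8, 19.3 and 3.08 TPM in control and 6.94, 5.75, 2.30, 4.91 and 4.72 TPM in IF. Within each group, both were lowest in the mouse in which Prap1 was highest. Mki67, a proliferation marker, was at 11.8, 1.14, 11.4, 10.4 and 18.2 TPM in control and 13.1, 19.2, 8.33, 15.7 and 18.7 TPM in IF, with control replicate 2 far below all the others. Adipoq, which marks fat cells, was listed at 0, 42.1, 1.70, 0 and 0 TPM in control and 0, 0, 0, 0.0684 and 4.45 TPM in IF, so control replicate 2 also held the most fat RNA. For this reason the counts given below are also stated without control replicate 2 and IF replicate 3 where they moved by over 1.5 times, an alternative chosen after seeing the data. In the first 2 principal components of the 10 libraries, the first, with 34% of the variance, placed the controls between -41.3 and -14.8 and the IF mice between 14.9 and 50.6, while the second, with 27%, placed control replicate 2 at -74.7 and IF replicate 3 at -37.1 with the other 8 mice between 2.48 and 23.6.

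**Figure D1:**
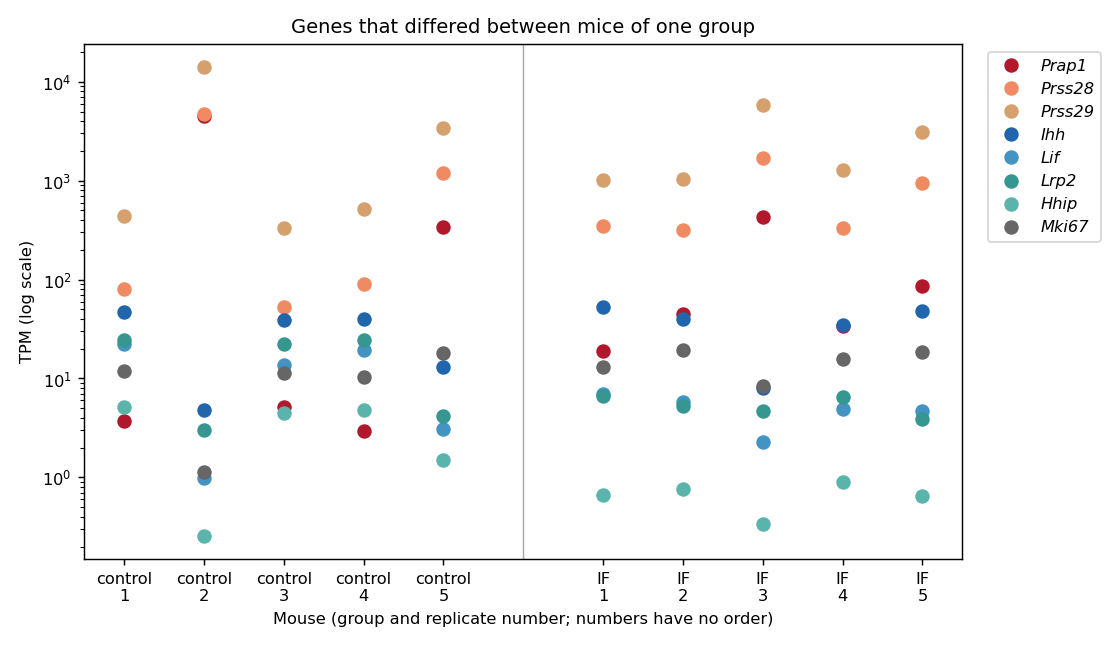
Level in TPM (log scale) of 8 genes in each of the 5 control and 5 IF mice, 1 point per gene and mouse. Prap1, Prss28 and Prss29 were highest in control replicate 2 and, within IF, in replicate 3, and Ihh was lowest in the same mice.

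Of 18706 genes with a value above 0 in all 20 libraries, 2509 were higher in IF and 1595 were lower at an adjusted p under 0.05 (limma on log2(TPM + 0.1), Benjamini-Hochberg adjustment), that is 13.4% and 8.53% of the genes tested. At least 2-fold, 366 genes (1.96%) were higher and 304 (1.63%) were lower. The shares of 13.4% higher and 8.53% lower are the background for every list count below. Higher calls were 61.1% of all calls, against 50.8% after quantile normalization and 50.9% after scaling by the median log ratio. For 1600 genes the lowest IF mouse was above the highest control. For 798 the highest IF mouse was below the lowest control. The groups did not overlap for 257 of the genes that were at least 2-fold higher and for 194 of those at least 2-fold lower. Of the at least 2-fold sets, 313 higher and 238 lower genes code for protein and 42 and 37 are annotated as long noncoding RNA. Fold changes below are log2 differences, IF minus control, ± SE from that fit, and TPM means are ± SD with n = 5. With only the 10 control and IF libraries in the fit, the calls of Igkc, Igha, Acta2, S100g, Ifitm2, Mgp, Col6a1, Hhip, Dhcr7, Cyp26b1, S100a9, Jchain, Ovgp1, Mt3, Ccnd1, Gli3 and Trim63 given below were lost (adjusted p = 0.051 to 0.14), and other calls lost there are named beside their values. The calls of Rgcc, Pdk4, Vegfa, Dkk2, Sfrp2, Ednrb, Ramp1, Il4ra and Il15ra were not checked gene by gene in this fit or in the other alternatives.

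**Figure D2:**
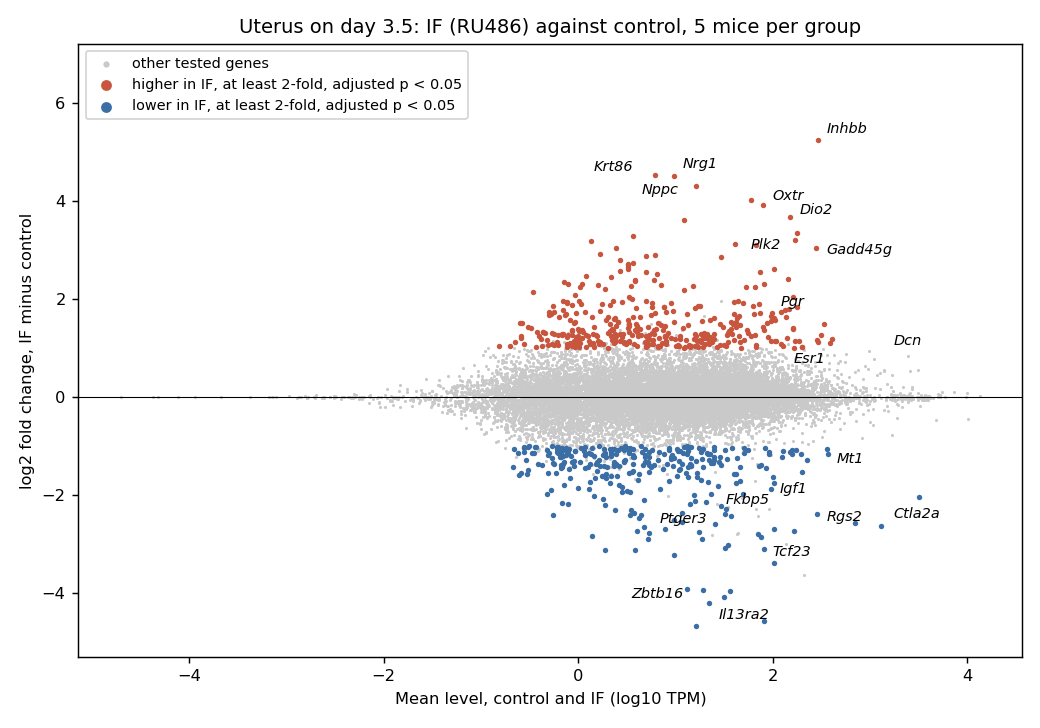
Each tested gene by its mean level (log10 TPM, horizontal) and its log2 fold change, IF minus control (vertical), with genes called at an adjusted p under 0.05 and at least 2-fold in colour. Inhbb lies highest at 5.24, and Il13ra2, Zbtb16 and Tcf23 are among the genes lower in IF by more than 3 on the log2 scale.

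The receptors that RU486 binds or that share its field of action came first. Pgr, the progesterone receptor gene (chr9:8898900-8968611, GRCm38), was at 52.1, 38.03, 42.3, 53.1 and 44.1 TPM in the 5 controls and at 136, 141, 138, 168 and 167 TPM in the 5 IF mice. The groups were far apart, and the rise was 3.27-fold (log2 fold change 1.71 ± 0.14, adjusted p = 1.4e-07). Esr1, the estrogen receptor alpha gene, rose from 108 ± 7.06 TPM in control to 154 ± 11.3 TPM in IF (log2 fold change 0.51 ± 0.06, adjusted p = 6e-06), again without overlap. Nr3c1, the glucocorticoid receptor gene, was at 20.2 ± 1.22 TPM in control and 23.8 ± 2.67 TPM in IF, a difference of 0.23 ± 0.08 that missed the threshold at an adjusted p of 0.051 and has a 95% interval of 0.06 to 0.40. It was called under 5 of the alternatives, the lowest adjusted p being 0.013 without IF replicate 5. Without control replicate 2 and IF replicate 3 together, the Nr3c1 difference was smaller, at 0.15 (adjusted p = 0.21). Of the 6 steroid receptor genes tested, 2 rose and none fell, and without IF replicate 5 there were 4 that rose. The plot of receptors and lower genes shows each mouse.

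**Figure D3:**
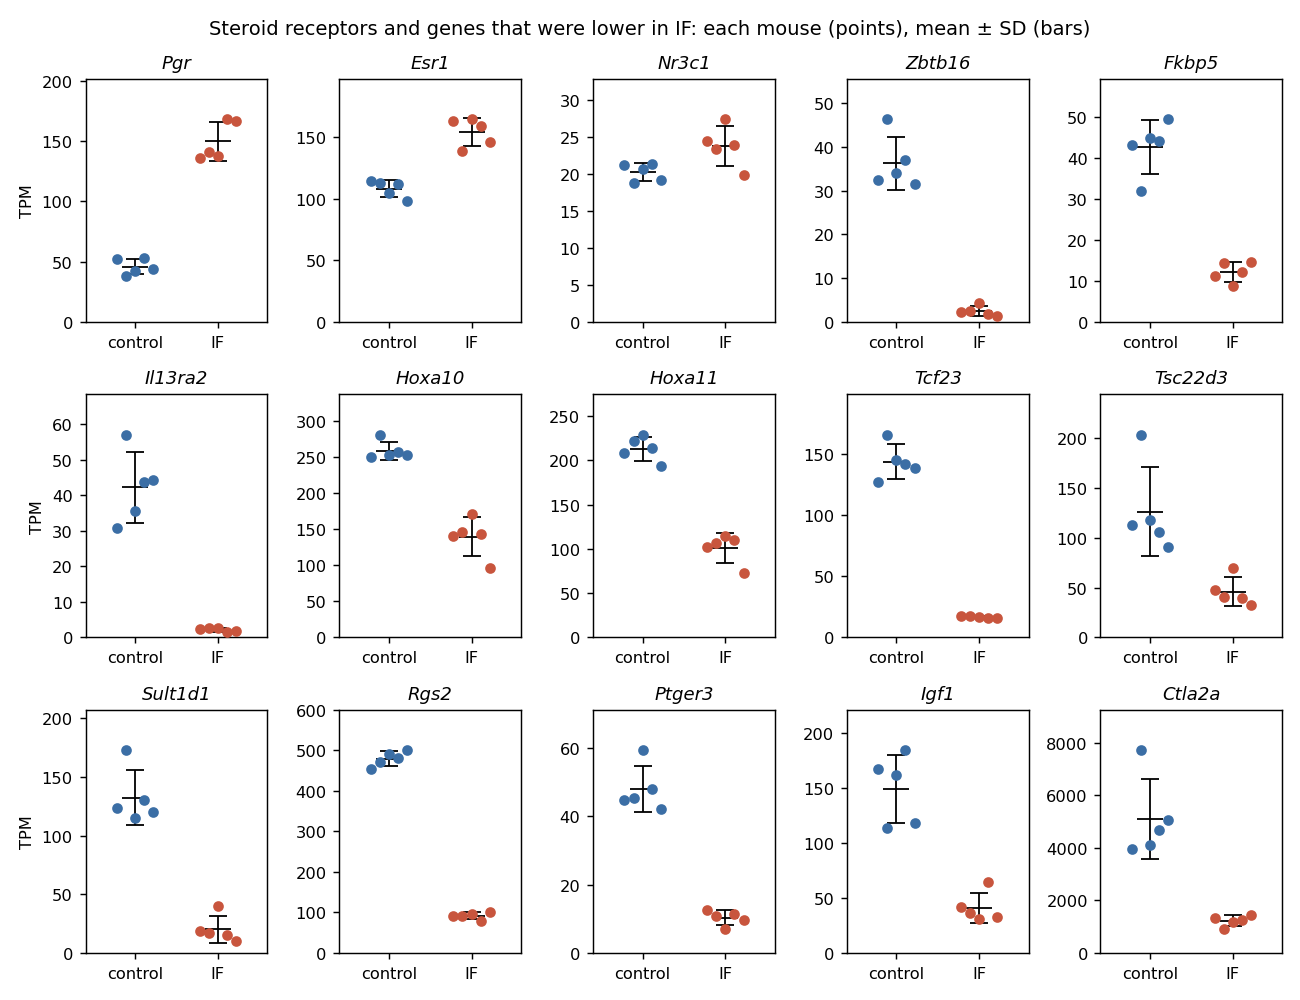
TPM in each mouse (points), with the mean ± SD of 5 mice per group (bars), for 3 receptor genes and 12 genes that were lower in IF. Pgr and Esr1 lie above the controls in all 5 IF mice, Nr3c1 overlaps, and for each of the 12 other genes all 5 IF mice lie below all 5 controls.

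Genes that the progesterone receptor is known to drive in the luminal epithelium did not move as a block. Of the 17 tested, 2 rose, 2 fell and 13 were not called, with a median log2 fold change of 0.10. Both shares were near those among all tested genes (13.4% higher and 8.53% lower). Il13ra2, a decoy receptor that binds interleukin 13, was at 30.8, 57.00, 35.6, 43.6 and 44.2 TPM in control and 2.38, 2.79, 2.66, 1.54 and 1.72 TPM in IF. The groups were far apart, and the fall was 18.3-fold (log2 fold change -4.20 ± 0.25, adjusted p = 2.8e-09). Fst, which encodes the activin-binding protein follistatin, fell from 66.2 ± 17.3 TPM in control to 26.1 ± 12.7 TPM in IF (log2 fold change -1.43 ± 0.38, adjusted p = 0.010), with overlapping mice. Cyp26a1, which degrades retinoic acid, and Wnt7a, an epithelial Wnt ligand, rose instead, Cyp26a1 from 117 ± 32.8 TPM in control to 255 ± 28.2 TPM in IF (log2 fold change 1.15 ± 0.13, adjusted p = 7.3e-06) and Wnt7a by 0.90 ± 0.17 (adjusted p = 0.00078). Ihh, the central epithelial relay of progesterone, differed by 0.52 ± 0.57 with an interval of -0.68 to 1.73 (adjusted p = 0.57). Gata2, a transcription factor upstream of the receptor, was tight within groups and differed by 0.12 ± 0.08 (interval -0.06 to 0.29, adjusted p = 0.36). Calca, the calcitonin gene, differed by -0.32 ± 0.43 (interval -1.21 to 0.57, adjusted p = 0.65). Areg, the amphiregulin gene, was listed at 15.8, 0, 10.2, 17.2 and 4.76 TPM in control and 5.90, 14.99, 0, 11.2 and 34.2 TPM in IF and was left out of the test because of its zeros. Its lowest values were in control replicate 2 and IF replicate 3. The number of this list that fell was 4 without control replicate 2 and 5 without control replicate 5.

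The receptor's stromal genes split by direction. Of 16 tested, 4 rose, 5 fell and 7 were not called. Zbtb16 (chr9:48651797-48836225), a zinc finger repressor induced by progestins and glucocorticoids, was at 32.3, 46.3, 33.9, 37.05 and 31.6 TPM in control and 2.29, 2.46, 4.32, 1.75 and 1.28 TPM in IF. It fell 15.4-fold (log2 fold change -3.95 ± 0.23, adjusted p = 2.8e-09). Hoxa10 and Hoxa11, homeobox genes that the stroma needs for decidualisation, were high in control and fell together. Hoxa10 was at 250.1, 281, 253, 257 and 253 TPM in control and 140.0, 146, 171, 143 and 96.4 TPM in IF (log2 fold change -0.92 ± 0.13, adjusted p = 8.3e-05). Hoxa11 fell from 213 ± 13.5 TPM in control to 101 ± 16.8 TPM in IF (log2 fold change -1.09 ± 0.12, adjusted p = 4e-06). Errfi1, a brake on the EGF receptor, fell from 215 ± 37.00 TPM in control to 96.7 ± 20.7 TPM in IF (log2 fold change -1.16 ± 0.24, adjusted p = 0.0020). Wnt4, Cebpb and Foxo1, which are themselves linked to decidualisation, moved upward. Wnt4 was at 4.53, 3.12, 4.79, 5.004 and 7.05 TPM in control and 27.1, 25.2, 11.4, 19.99 and 43.6 TPM in IF (log2 fold change 2.27 ± 0.41, adjusted p = 0.00064). Cebpb rose from 30.9 ± 13.4 TPM in control to 113 ± 40.2 TPM in IF (log2 fold change 1.89 ± 0.33, adjusted p = 0.00038). Foxo1 rose by 0.90 ± 0.08 (adjusted p = 4.2e-07). Hand2, which restrains stromal growth factors under progesterone, was at 117, 136, 90.8, 98.96 and 195 TPM in control and 93.1, 115, 84.1, 103 and 123 TPM in IF. Its groups overlapped, and the difference was -0.26 ± 0.15 with an interval of -0.58 to 0.06 (adjusted p = 0.25). Bmp2 differed by 0.59 ± 0.32 (interval -0.09 to 1.27, adjusted p = 0.21), and was called higher without control replicate 5 (0.94, adjusted p = 0.011).

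Among 22 transcription factors of implantation, 5 rose, 5 fell and 12 were not called. Besides the Hox genes, Foxa2, the factor that glands need, fell from 11.8 ± 2.89 TPM in control to 6.21 ± 0.815 TPM in IF (log2 fold change -0.89 ± 0.20, adjusted p = 0.0037), without overlap. Stat3, through which LIF acts, rose from 136 ± 18.6 TPM in control to 212 ± 45.5 TPM in IF (log2 fold change 0.62 ± 0.13, adjusted p = 0.0016), also without overlap. Msx1, which keeps the epithelium receptive, was at 95.00, 70.1, 94.6, 90.9 and 40.5 TPM in control and 66.4, 45.5, 75.8, 50.9 and 44.7 TPM in IF and missed the threshold (-0.43 ± 0.19, adjusted p = 0.12). It was called lower with array quality weights (-0.72, adjusted p = 0.00088) and without control replicate 5 (-0.65, adjusted p = 0.0027). Lif itself, already given by mouse, differed by -0.62 ± 0.66 with a wide interval of -2.003 to 0.76 (adjusted p = 0.55). With array quality weights it was called lower (-1.41, adjusted p = 0.031). Of 15 tested genes of LIF and STAT3 signalling, 6 rose, 1 fell and 8 were not called (2 fell without control replicate 5). The rises included Osmr, the oncostatin M receptor, from 19.97 ± 5.12 TPM in control to 38.5 ± 11.03 TPM in IF (log2 fold change 0.94 ± 0.18, adjusted p = 0.00086) and Socs1, a feedback inhibitor, by 1.21 ± 0.30 (adjusted p = 0.0078). Clcf1, a cytokine of the same family, rose by 1.13 ± 0.20 (adjusted p = 0.00053), and control replicate 2 lay within the range of the IF mice.

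The hedgehog pathway carries the signal from epithelium to stroma. Its readouts Ptch1 and Gli1, both induced in stroma by hedgehog ligand, were not called. Ptch1 was at 67.7, 27.2, 65.4, 73.7 and 41.3 TPM in control and 73.6, 79.9, 44.00, 74.96 and 47.6 TPM in IF (difference 0.27 ± 0.22, interval -0.19 to 0.72, adjusted p = 0.43). Gli1 differed by -0.01 ± 0.17 (interval -0.37 to 0.34, adjusted p = 0.96), and with single mice left out it ran from -0.18 without control replicate 2 to 0.07 without control replicate 1. Of 14 tested members, 2 rose, 4 fell and 8 were not called. The share that rose was near the 13.4% among all tested genes, and the share that fell was above the 8.53% there. Hhip, which binds and blocks the ligand, was at 5.14, 0.256, 4.45, 4.75 and 1.48 TPM in control and 0.671, 0.756, 0.342, 0.893 and 0.644 TPM in IF. It fell by 1.65 ± 0.52 on the log2 scale (adjusted p = 0.030), but control replicate 2 was the lowest of the 10 mice, and the call was lost without control replicates 1, 3 or 4 or IF replicates 3 or 5 (adjusted p = 0.053 to 0.087). The co-receptor genes Boc (log2 fold change -0.96 ± 0.12, adjusted p = 2.4e-05) and Gas1 (log2 fold change -0.39 ± 0.10, adjusted p = 0.011) fell, Gli3 fell by 0.49 ± 0.15 (adjusted p = 0.022, although the call was lost without control replicates 1 or 4 or IF replicate 5 (adjusted p = 0.058 to 0.063)), and Gli2 (log2 fold change 0.60 ± 0.10, adjusted p = 0.00025) and the low gene Dhh (log2 fold change 1.17 ± 0.30, adjusted p = 0.0088) rose. Without control replicate 1, control replicate 4 or IF replicate 5 the number that fell was 2.

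RU486 also blocks the glucocorticoid receptor, and genes known to respond to it were called in both directions. Of 21 tested, 7 rose, 10 fell and 4 were not called, against 13.4% higher and 8.53% lower among all tested genes. Zbtb16, Fkbp5, Errfi1 and Sgk1 are also in the stromal progesterone list. Fkbp5 (chr17:28398753-28486149), a co-chaperone of steroid receptors, was at 43.3, 31.8, 44.8, 44.2 and 49.4 TPM in control and 11.2, 14.3, 8.67, 12.2 and 14.5 TPM in IF. It fell 3.51-fold (log2 fold change -1.81 ± 0.15, adjusted p = 1.3e-07), without overlap. Tsc22d3, which encodes the anti-inflammatory leucine zipper protein GILZ, was at 113, 203, 118, 106 and 90.9 TPM in control and 47.6, 40.5, 69.7, 39.4 and 32.05 TPM in IF (log2 fold change -1.45 ± 0.22, adjusted p = 0.00012). Hif3a, a hypoxia-inducible factor subunit, fell from 6.87 ± 1.56 TPM in control to 0.726 ± 0.291 TPM in IF (log2 fold change -3.13 ± 0.25, adjusted p = 1.4e-07). The clock gene Per1 fell by 0.69 ± 0.14 (adjusted p = 0.0012). In each of these genes the 5 IF mice were below the 5 controls. The members that rose were led by Rgcc, a cell cycle regulator, at 1.23 ± 0.18 (adjusted p = 6.3e-05) and Pdk4, a kinase that limits glucose oxidation, at 1.19 ± 0.36 (adjusted p = 0.024). Sgk1, a kinase that regulates ion channels, also rose (log2 fold change 0.79 ± 0.26, adjusted p = 0.038), but the call was lost without control replicates 1, 2, 3 or 4 or IF replicates 3, 4 or 5 (adjusted p = 0.054 to 0.096). The number that rose was 3 without control replicate 1, control replicate 4 or IF replicate 3, and 4 without control replicate 3, IF replicate 2, IF replicate 5, or control replicate 2 and IF replicate 3 together.

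The metallothionein genes Mt1, Mt2 and Mt3, whose small proteins bind zinc and copper, lie next to each other (chr8:94152607-94180327) and all fell. Mt1 was at 504, 426, 494, 566 and 449 TPM in control and 314, 236, 227, 221 and 184 TPM in IF (log2 fold change -1.06 ± 0.11, adjusted p = 2.4e-06). Mt2 was at 554, 274, 506, 597 and 635 TPM in control and 296, 233, 198, 212 and 172 TPM in IF (log2 fold change -1.17 ± 0.19, adjusted p = 0.00017). Mt3, at a much lower level, fell from 15.2 ± 8.66 TPM in control to 6.84 ± 2.92 TPM in IF (log2 fold change -1.10 ± 0.32, adjusted p = 0.019), although the call was lost without IF replicate 2 (adjusted p = 0.058). Mt1 separated the groups fully, while for Mt2 control replicate 2 was below IF replicate 1. The promoter window of Mt1 is shown because it holds the word that the progesterone and glucocorticoid receptors bind, searched as GNACA, any 3 bases, TGTNC, which reads the same on both strands. Trim63, a muscle ubiquitin ligase, is shown beside it as another gene with the word that fell (from 5.24 ± 2.87 TPM in control to 2.33 ± 1.72 TPM in IF, log2 fold change -1.23 ± 0.38, adjusted p = 0.026), although the call was lost without control replicates 2 or 4 or IF replicates 4 or 5 (adjusted p = 0.05 to 0.081). The 250 bases before each RefSeq start are given 5′ to 3′, with the word in capitals.
Mt1 (GRCm38.p6, chr8:94178839-94179088, plus strand): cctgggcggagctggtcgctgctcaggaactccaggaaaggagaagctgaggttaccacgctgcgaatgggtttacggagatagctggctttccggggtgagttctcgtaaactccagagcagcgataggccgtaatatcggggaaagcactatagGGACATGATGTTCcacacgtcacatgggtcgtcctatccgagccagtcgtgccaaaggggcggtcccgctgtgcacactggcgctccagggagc
Trim63 (GRCm38.p6, chr4:134314870-134315119, plus strand): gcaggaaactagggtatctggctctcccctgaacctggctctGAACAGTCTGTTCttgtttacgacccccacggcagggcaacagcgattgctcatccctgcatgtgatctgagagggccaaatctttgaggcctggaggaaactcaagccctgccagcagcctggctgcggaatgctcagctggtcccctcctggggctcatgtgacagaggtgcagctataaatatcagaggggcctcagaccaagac
The word begins 94 bases before the start of Mt1 and 208 bases before the start of Trim63. In windows of 250 bases before to 50 bases after the start, it was found in 57 of 13072 tested genes with a RefSeq window (0.436%), in 4 of 209 that were at least 2-fold lower (1.91%) and in 2 of 259 that were at least 2-fold higher (0.772%). The 4 lower genes were Mt1, Trim63, Gnmt, a glycine methyltransferase, and Slc10a6, a carrier of steroid sulfates. Gnmt fell from 3.51 ± 0.938 TPM in control to 1.63 ± 0.509 TPM in IF (log2 fold change -1.08 ± 0.26, adjusted p = 0.0065) and Slc10a6 from 14.4 ± 3.80 TPM in control to 6.54 ± 0.907 TPM in IF (log2 fold change -1.11 ± 0.16, adjusted p = 7e-05). The estrogen receptor's word, GGTCA, any 3 bases, TGACC, was found in 4 of the 13072 genes (0.0306%), of which 1 belonged to the higher genes and none to the lower. The AP-1 word TGANTCA was found in 6.82% of the 13072 genes, 8.49% of the higher and 9.09% of the lower genes. A word in these windows is a description of the sequence and not evidence of binding.

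Early estrogen response genes, which estrogen induces within hours in the uterus, were higher more often than tested genes at large. Of 27 tested, 16 rose, 3 fell and 8 were not called, and the median log2 fold change was 0.82, beside 0.02 over all tested genes. The list was chosen with earlier results of these data known, so this excess is a description and not an independent test. Inhbb (chr1:119415463-119422248), a subunit of activin B and inhibin B, was at 7.32, 31.7, 9.97, 10.99 and 22.5 TPM in control and 376, 503, 423, 669.7 and 846 TPM in IF. It had the largest log2 fold change among the genes named by the rule (log2 fold change 5.24 ± 0.50, adjusted p = 8.9e-07). Gadd45g, a stress-response gene, was at 57.4, 39.9, 44.7, 62.2 and 93.4 TPM in control and 314, 491, 384, 458 and 821 TPM in IF (log2 fold change 3.04 ± 0.36, adjusted p = 8.3e-06). Ramp3, which shapes the adrenomedullin receptor, rose from 35.7 ± 23.3 TPM in control to 304 ± 108 TPM in IF (log2 fold change 3.20 ± 0.41, adjusted p = 2.1e-05). Its control replicate 2 stood above the other controls. Fosl2, a partner in AP-1, rose by 1.15 ± 0.19 (adjusted p = 0.00020), and Vegfa rose by 1.03 ± 0.18 (adjusted p = 0.00044). The 3 members that fell are linked to growth. Igf1, the insulin-like growth factor that stroma sends to the epithelium, was at 167, 114, 162, 184 and 118 TPM in control and 41.5, 35.9, 31.04, 64.3 and 32.4 TPM in IF (log2 fold change -1.89 ± 0.16, adjusted p = 2.3e-07). Myc fell from 113 ± 12.02 TPM in control to 54.8 ± 3.88 TPM in IF (log2 fold change -1.04 ± 0.09, adjusted p = 5.1e-07) and Ccnd1, cyclin D1, from 73.8 ± 27.4 TPM in control to 36.2 ± 10.6 TPM in IF (log2 fold change -0.97 ± 0.29, adjusted p = 0.022), where control replicate 2 lay among the IF mice and the call was lost without control replicates 3, 4 or 5 or IF replicate 3 (adjusted p = 0.054 to 0.062). Without control replicate 2, alone or together with IF replicate 3, 5 members fell.

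Of 20 tested late estrogen response genes, mostly secretory genes of the epithelium, 4 rose, none fell and 16 were not called. The background was 13.4% higher and 8.53% lower, and the median of the list was 0.47. Without control replicate 1 or 3, 2 of them fell, and without IF replicate 3, 1 fell. Padi1, a peptidylarginine deiminase, was at 23.4, 38.3, 20.04, 29.4 and 29.2 TPM in control and 92.4, 188, 147, 253 and 200.4 TPM in IF (log2 fold change 2.60 ± 0.35, adjusted p = 3.2e-05). Capn5, a calpain protease, rose by 0.59 ± 0.08 (adjusted p = 2.1e-05). Ltf, the lactoferrin gene and a classical marker of estrogen action, was at 8.57, 79.5, 17.9, 25.9 and 84.99 TPM in control and 33.8, 14.4, 59.8, 14.3 and 37.01 TPM in IF. The groups overlapped, and the difference was -0.16 ± 0.57 with an interval of -1.36 to 1.04 (adjusted p = 0.88). Greb1 was at 7.14, 21.3, 5.95, 7.93 and 7.41 TPM in control and 10.8, 16.8, 19.6, 21.3 and 18.1 TPM in IF and just missed the threshold (0.93 ± 0.33, adjusted p = 0.052), with control replicate 2 as high as the highest IF mouse and the other 4 controls below every IF mouse. Without control replicate 2 it was called higher (1.24, adjusted p = 0.0033).

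Genes of secreted growth factors were tested by family. Of 41 tested genes of TGF-beta, activin and BMP signalling, 19 rose, 5 fell and 17 were not called. Inhba, the other activin subunit, was at 0.639, 1.12, 0.771, 0.636 and 0.824 TPM in control and 3.43, 6.84, 7.11, 3.06 and 8.20 TPM in IF (log2 fold change 2.62 ± 0.34, adjusted p = 2.3e-05), while follistatin, which neutralises activin, fell as given above. Without IF replicate 5 the number that fell was 3. Of 16 tested EGF family genes, 8 rose, 2 fell and 6 were not called. Nrg1, the neuregulin 1 ligand of ERBB3 and ERBB4, was at 0.467, 1.37, 0.288, 0.851 and 0.819 TPM in control and 11.4, 17.05, 17.8, 18.1 and 27.1 TPM in IF, a 22.8-fold rise (log2 fold change 4.51 ± 0.35, adjusted p = 8.9e-08). Its relative Nrg4 went down, from 6.21 ± 0.614 TPM in control to 1.99 ± 0.936 TPM in IF (log2 fold change -1.70 ± 0.25, adjusted p = 9.5e-05), and Btc, betacellulin, rose at a low level (log2 fold change 1.26 ± 0.34, adjusted p = 0.012). Without control replicate 1 the number of this list that rose was 5. The receptor genes Egfr, Erbb2 and Erbb3 were not called.

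FGF and WNT genes followed. Of 12 tested FGF genes, 4 rose, 1 fell and 7 were not called (2 fell without IF replicate 3). Fgf2 was at 5.83, 5.05, 5.57, 5.87 and 8.75 TPM in control and 15.4, 17.6, 9.32, 16.6 and 27.9 TPM in IF (log2 fold change 1.41 ± 0.30, adjusted p = 0.0022). The receptor gene Fgfr3 rose (log2 fold change 1.06 ± 0.18, adjusted p = 0.00042). Fgf7, a stromal factor that acts on epithelium, fell from 4.02 ± 0.300 TPM in control to 2.06 ± 0.773 TPM in IF (log2 fold change -1.01 ± 0.21, adjusted p = 0.0018). Of 37 tested WNT genes, 15 rose, 3 fell and 19 were not called, with 1 that fell when control replicate 1 was left out. Axin2, a feedback target of WNT signalling, was at 21.6, 30.3, 17.9, 19.97 and 19.4 TPM in control and 56.5, 53.03, 65.7, 66.04 and 71.6 TPM in IF (log2 fold change 1.53 ± 0.15, adjusted p = 9.9e-07). Wnt2 rose at a low level (log2 fold change 1.43 ± 0.22, adjusted p = 0.00015). Of the secreted inhibitors, Dkk2 rose by 1.17 ± 0.11 (adjusted p = 6.2e-07) and Sfrp2 fell from 118 ± 12.1 TPM in control to 71.1 ± 13.7 TPM in IF (adjusted p = 0.0010).

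**Figure D4:**
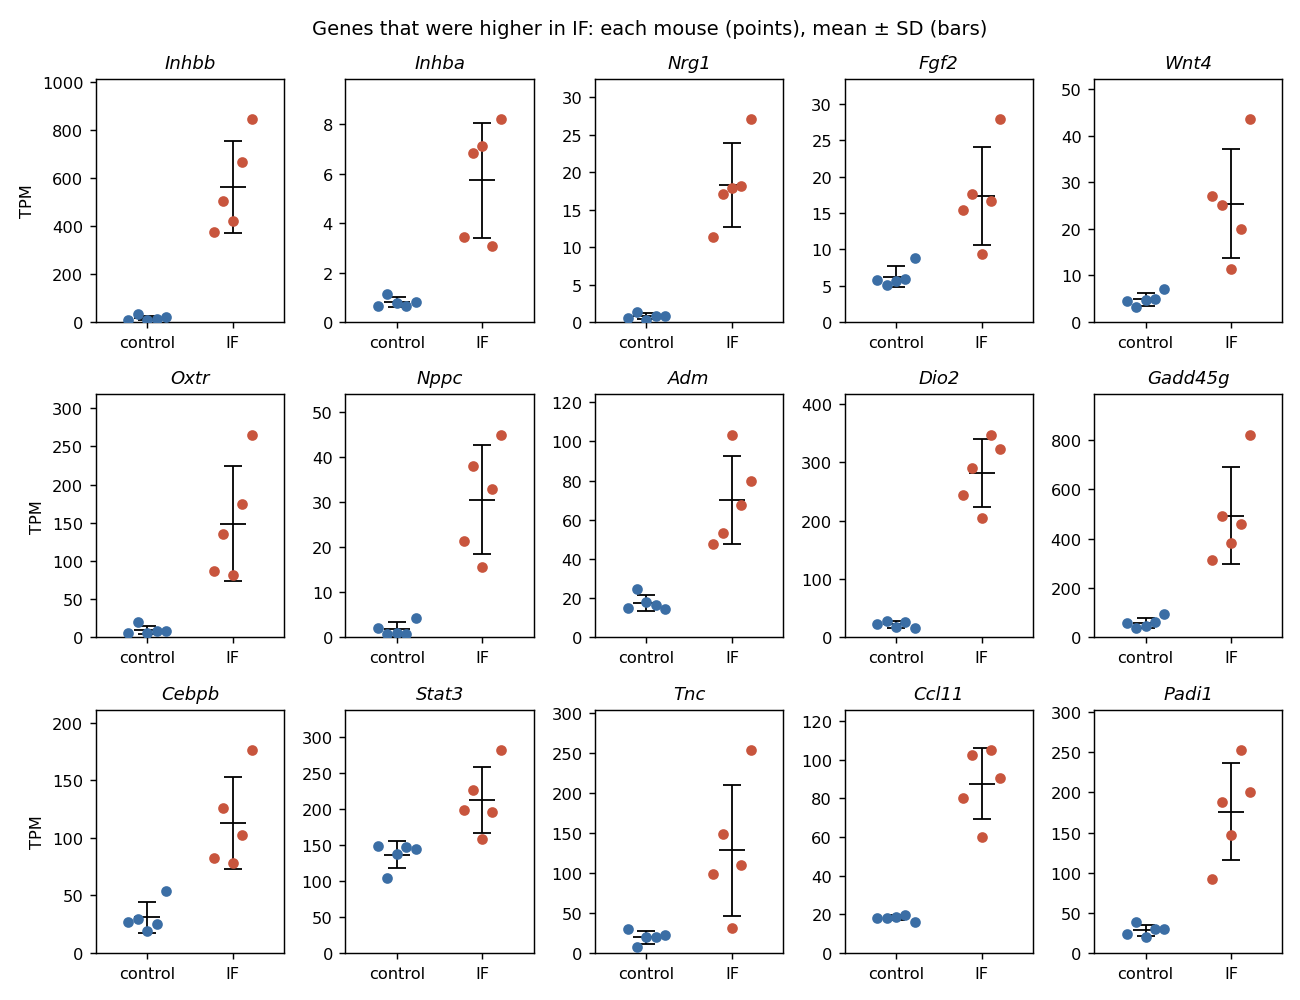
TPM in each mouse (points), with the mean ± SD of 5 mice per group (bars), for 15 genes that were higher in IF. In every panel the 5 IF mice lie above the 5 controls, with the widest relative spread within IF in Tnc.

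Genes of uterine contraction changed in opposite directions. Of 24 tested, 8 rose, 3 fell and 13 were not called. Oxtr (chr6:112473683-112491035), the oxytocin receptor gene, was at 5.80, 19.6, 6.21, 9.06 and 8.50 TPM in control and 86.95, 136, 81.9, 175 and 265 TPM in IF. The lowest IF mouse was above 4 times the highest control, and the rise was 15.1-fold (log2 fold change 3.92 ± 0.47, adjusted p = 1e-05). Rgs2, which shortens signalling through Gq-coupled receptors such as that of oxytocin, was at 453, 470.5, 492, 482 and 501 TPM in control and 91.4, 91.8, 95.5, 79.5 and 102 TPM in IF. Both groups were narrow and the fall was 5.22-fold (log2 fold change -2.38 ± 0.10, adjusted p = 3e-11). Ptger3, a prostaglandin E2 receptor gene, fell from 47.9 ± 6.74 TPM in control to 10.3 ± 2.19 TPM in IF (log2 fold change -2.23 ± 0.13, adjusted p = 2.8e-09). Ednrb, an endothelin receptor gene, fell from 41.03 ± 21.9 TPM in control to 15.02 ± 1.12 TPM in IF (adjusted p = 8e-05). Gja1, the gap junction gene of the myometrium, and Ptgs2 were not called. Among 32 prostaglandin and vasoactive genes, 12 rose, 4 fell and 16 were not called. Adm, the vasodilator adrenomedullin, was at 15.1, 24.5, 18.1, 16.5 and 14.3 TPM in control and 47.5, 53.2, 103, 67.3 and 79.7 TPM in IF (log2 fold change 1.95 ± 0.22, adjusted p = 5.8e-06). Of the related RAMP genes, Ramp3 was higher, as given above, and Ramp1 was lower (63.1 ± 12.1 TPM in control to 21.5 ± 6.12 TPM in IF, adjusted p = 3.1e-06). Nppc, C-type natriuretic peptide, was at 2.18, 0.691, 0.927, 0.673 and 4.39 TPM in control and 21.3, 37.9, 15.5, 32.9 and 44.9 TPM in IF (log2 fold change 4.30 ± 0.53, adjusted p = 1.3e-05).

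Of the cell type marker lists, endothelium moved most uniformly. Of its 10 markers, 9 rose, none fell and 1 was not called. Their median log2 fold change was 0.40. The sum over the markers was 636 to 812 TPM in control and 911 to 1024 TPM in IF. Kdr, the VEGF receptor 2 gene, was at 27.7, 19.9, 33.2, 32.8 and 27.6 TPM in control and 43.1, 43.9, 36.7, 44.5 and 41.3 TPM in IF (log2 fold change 0.59 ± 0.11, adjusted p = 0.00054). Cdh5, the endothelial cadherin, rose by 0.45 ± 0.12 (adjusted p = 0.0089), a call lost at an adjusted p of 0.05 with only the 10 libraries. In whole tissue, more cells of a type and more RNA per cell cannot be told apart. Of 12 epithelial markers, 7 rose, 1 fell and 4 were not called. Elf3, an epithelial transcription factor, rose from 21.9 ± 4.33 TPM in control to 53.8 ± 11.5 TPM in IF (log2 fold change 1.29 ± 0.16, adjusted p = 1.8e-05) and the tight junction gene Cldn3 fell from 299 ± 66.2 TPM in control to 156 ± 47.6 TPM in IF (log2 fold change -0.95 ± 0.20, adjusted p = 0.0018). The number of epithelial markers that rose was 4 without any 1 of control replicates 1, 3, 4 and 5 and IF replicates 3 and 4. Of 9 gland markers, none rose, 1 fell and 8 were not called, with the share that fell near the 8.53% among all tested genes. The member that fell was Foxa2. Their sum was 1861 to 26574 TPM in control and 3167 to 12845 TPM in IF, and the number that fell was 3 without control replicate 2, and 2 without control replicate 1, control replicate 3, or control replicate 2 and IF replicate 3 together. Of 12 stromal markers, 3 rose, 1 fell and 8 were not called. Dcn, decorin, an abundant proteoglycan of fibroblasts, was at 1666, 1978, 1767, 1653 and 1688 TPM in control and 3084, 3279, 3577, 3104 and 2688 TPM in IF (log2 fold change 0.84 ± 0.09, adjusted p = 2e-06). Lum, lumican, rose from 401 ± 112 TPM in control to 721 ± 142 TPM in IF (log2 fold change 0.88 ± 0.20, adjusted p = 0.0037). Of 10 smooth muscle markers, none rose, 2 fell and 8 were not called. They were Acta2, from 2179 ± 473 TPM in control to 1602 ± 229.9 TPM in IF (log2 fold change -0.42 ± 0.14, adjusted p = 0.037), and Synm (log2 fold change -0.53 ± 0.14, adjusted p = 0.012). With only the 10 libraries Synm was not called (adjusted p = 0.07). For Acta2, the call was lost without control replicates 1, 3, 4 or 5 or IF replicates 1, 2, 3 or 5 (adjusted p = 0.053 to 0.099), while without control replicate 2, alone or with IF replicate 3, 4 markers fell.

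Blood cell markers were less even. Of 10 tested markers of B and plasma cells, none rose, 4 fell and 6 were not called. The immunoglobulin genes spread widely within groups. Igha, the heavy chain of IgA, was at 1372, 636, 1742, 1211 and 399.8 TPM in control and 1069.9, 226, 79.9, 269.9 and 19.4 TPM in IF (log2 fold change -2.56 ± 0.84, adjusted p = 0.034). Jchain, which joins IgA and IgM units, was at 195, 95.8, 237, 197 and 72.7 TPM in control and 157, 28.5, 11.8, 37.7 and 2.66 TPM in IF (log2 fold change -2.70 ± 0.80, adjusted p = 0.021). IF replicate 1 lay among the controls for both. For Igha, the call was lost without control replicates 1, 3 or 4 or IF replicates 3 or 5 (adjusted p = 0.07 to 0.10), and for Jchain, the call was lost without control replicate 3 or IF replicates 3 or 5 (adjusted p = 0.05 to 0.061). The number of this list that fell was 0 without control replicate 3 or without IF replicate 5, 1 without IF replicate 3 and 2 without control replicate 1 or without control replicate 2 and IF replicate 3, while 1 rose without IF replicate 3, alone or with control replicate 2. Over all 35 tested immunoglobulin genes and segments, 14 fell and 1 rose, and segment names do not count cells. Of 12 macrophage and myeloid markers, 3 rose, none fell and 9 were not called. Those that rose were Ptprc, Csf1r and Adgre1, by 0.39 ± 0.12, 0.32 ± 0.11 and 0.23 ± 0.08 (adjusted p = 0.029, 0.044 and 0.046). All these calls were lost with array quality weights (adjusted p = 0.095, 0.088 and 0.11). Csf1r and Adgre1 also lost theirs after quantile normalization (0.12 and 0.11), after median log ratio scaling (0.073 and 0.074), without a variance trend (0.055 and 0.059) and with only the 10 libraries (0.11 for both). The number that rose was 0 without control replicate 4, control replicate 5 or IF replicate 5, and 1 without control replicate 2, control replicate 3, IF replicate 3, or control replicate 2 and IF replicate 3 together. Of 14 T and natural killer cell markers, 2 rose, none fell and 12 were not called. The share that rose was near the 13.4% among all tested genes. The members that rose were Trac, a T cell receptor constant gene (log2 fold change 0.57 ± 0.19, adjusted p = 0.035), and Eomes (log2 fold change 0.56 ± 0.16, adjusted p = 0.018). Eomes is also among the 10 genes of the early embryo, of which 2 were tested and 1 rose. Which cells the Eomes RNA came from was not tested. For Trac, the call was lost without control replicates 2, 3 or 4 or IF replicates 1, 3 or 5 (adjusted p = 0.054 to 0.091). Without control replicate 2 and IF replicate 3 neither Trac nor Eomes was called (adjusted p = 0.092 and 0.078). The number of T and natural killer cell markers that rose was then 0, and it was 5 without IF replicate 4. Of 5 tested neutrophil markers 1 rose, S100a9 (log2 fold change 1.37 ± 0.47, adjusted p = 0.041), but the call was lost without control replicates 2, 3 or 5 or IF replicates 1, 2 or 5 (adjusted p = 0.06 to 0.12). None of 5 eosinophil, 10 mast cell, 6 mesothelium and 5 red blood cell markers was called. At an unadjusted p under 0.05, 0 eosinophil, 1 mast cell, 1 mesothelium and 0 red blood cell markers were counted. A mast cell marker fell without IF replicate 1, a mesothelium marker rose without control replicate 2 and a myeloid marker fell without control replicate 5.

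Immune response genes were tested as separate lists. Of 22 interferon-stimulated genes, 11 rose, none fell and 11 were not called, with a median of 0.71. Isg15, a ubiquitin-like protein induced by interferon, was at 35.7, 35.7, 38.8, 30.2 and 31.2 TPM in control and 69.4, 72.00, 128, 89.2 and 60.8 TPM in IF (log2 fold change 1.24 ± 0.26, adjusted p = 0.0021). Oas3 rose at a low level, from 2.85 ± 1.29 TPM in control to 7.51 ± 2.30 TPM in IF (log2 fold change 1.43 ± 0.37, adjusted p = 0.0096). Of 53 cytokines, chemokines and receptors, 13 rose, 4 fell and 36 were not called. Ccl11, eotaxin, which attracts eosinophils, was at 18.3, 18.3, 18.5, 19.5 and 15.99 TPM in control and 80.1, 102, 59.8, 105 and 90.5 TPM in IF (log2 fold change 2.24 ± 0.21, adjusted p = 6.1e-07), while the eosinophil markers summed to 15.7 to 28.7 TPM in control and 22.6 to 31.4 TPM in IF. Ackr3, a scavenging receptor of CXCL12, rose from 45.05 ± 4.37 TPM in control to 144 ± 35.7 TPM in IF (log2 fold change 1.65 ± 0.24, adjusted p = 7.4e-05), Il4ra rose from 51.5 ± 5.07 TPM in control to 158 ± 47.7 TPM in IF (adjusted p = 3.1e-05) and Il15ra fell from 20.9 ± 2.97 TPM in control to 8.14 ± 2.59 TPM in IF (adjusted p = 1.2e-05). Il1b, Tnf and Ccl2 were not called. Of 20 complement genes, 3 rose, 1 fell and 16 were not called, near the shares among all tested genes (13.4% and 8.53%). Cd55, which protects cells from complement, rose (log2 fold change 0.95 ± 0.22, adjusted p = 0.0044), and Masp1, a protease of the lectin pathway, fell (log2 fold change -0.96 ± 0.23, adjusted p = 0.0058).

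Matrix genes changed selectively. Of 43 tested, 13 rose, 4 fell and 26 were not called, and the main collagen genes Col1a1, Col1a2 and Col3a1 were not called. Tnc, tenascin C, was at 29.4, 7.03, 19.4, 20.1 and 22.8 TPM in control and 98.6, 149, 30.6, 110.3 and 254 TPM in IF (log2 fold change 2.54 ± 0.60, adjusted p = 0.0051). Col6a4, a collagen VI chain, was at 67.9, 51.2, 60.1, 67.4 and 49.5 TPM in control and 151, 181, 207, 277 and 213 TPM in IF (log2 fold change 1.78 ± 0.19, adjusted p = 2.6e-06), with far less spread than Tnc. Has1, a hyaluronan synthase, rose from 4.36 ± 2.26 TPM in control to 20.1 ± 9.88 TPM in IF (log2 fold change 2.19 ± 0.58, adjusted p = 0.011). Cemip, which cuts hyaluronan, was at 1.28, 1.63, 1.04, 1.15 and 0.753 TPM in control and 13.97, 10.9, 18.1, 3.91 and 68.3 TPM in IF (log2 fold change 3.61 ± 0.51, adjusted p = 6.3e-05). Among 28 epithelial junction and barrier genes, 8 rose, 3 fell and 17 were not called, and 5 rose without any 1 of control replicates 1, 3 and 4 and IF replicates 3 and 4. Cldn8, a claudin that limits the passage of ions, was at 12.6, 32.3, 13.1, 13.7 and 9.27 TPM in control and 4.08, 3.91, 4.04, 1.23 and 1.15 TPM in IF (log2 fold change -2.52 ± 0.44, adjusted p = 0.00046).

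Hair keratin genes rose as neighbours. Krt87, Krt81, Krt86 and Krt83 are adjacent among tested genes (chr15:101431490-101491512) and were each at least 2-fold higher. Krt86 was at 0.539, 0.596, 0.294, 0.252 and 0.219 TPM in control and 4.82, 9.85, 7.18, 21.3 and 16.6 TPM in IF (log2 fold change 4.53 ± 0.64, adjusted p = 5.8e-05). Krt81 rose from 1.29 ± 0.197 TPM in control to 11.1 ± 4.95 TPM in IF (log2 fold change 2.90 ± 0.45, adjusted p = 0.00014), Krt87 by 2.52 ± 0.46 and Krt83 by 1.22 ± 0.17 (adjusted p = 0.00062 and 5.8e-05). Krt83 had the highest level of the 4 in TPM, at 54.2 ± 8.61 TPM in control and 126 ± 10.1 TPM in IF. These genes are close relatives, and how the counting divided reads between near-identical stretches is not given in the sources used here, so the share of each is uncertain. Runs of 3 or more adjacent tested genes that were at least 2-fold in the same direction numbered 6 in all, and the metallothionein run above was one of them.

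Among the 15 largest falls by the naming rule, which took only genes whose groups did not overlap, were several genes outside these lists. Tcf23, a basic helix-loop-helix factor needed for decidualisation, was at 127, 166, 146, 142 and 139 TPM in control and 17.4, 17.5, 16.5, 16.3 and 15.8 TPM in IF (log2 fold change -3.10 ± 0.12, adjusted p = 1.1e-11). The 5 IF mice lay within 2 TPM of each other. Sult1d1, a sulfotransferase, was at 124, 173, 115, 131 and 119.8 TPM in control and 19.1, 16.6, 39.8, 15.2 and 10.2 TPM in IF (log2 fold change -2.85 ± 0.28, adjusted p = 1e-06). Cyp1b1, a cytochrome P450 that hydroxylates estradiol, fell from 17.1 ± 2.30 TPM in control to 2.13 ± 1.53 TPM in IF (log2 fold change -3.23 ± 0.47, adjusted p = 7.6e-05). Cd36, a fatty acid transporter, fell from 33.4 ± 12.5 TPM in control to 4.17 ± 0.679 TPM in IF (log2 fold change -2.90 ± 0.23, adjusted p = 7.9e-08). Angptl7, a secreted angiopoietin-like protein, was at 366, 123, 383, 408 and 179.8 TPM in control and 47.4, 40.4, 43.3, 49.9 and 22.9 TPM in IF (log2 fold change -2.74 ± 0.30, adjusted p = 4.5e-06), with control replicates 2 and 5 below the other controls. The transport genes Atp12a, a proton and potassium pump, and Kcnd2, a potassium channel, fell by 2.70 and 2.66 on the log2 scale (adjusted p = 3.5e-06 and 2.4e-06). Ppfia2 and Rims3, scaffold genes best known from synapses, fell from 7.08 ± 2.84 TPM in control to 0.947 ± 0.290 TPM in IF and from 7.44 ± 4.97 TPM in control to 0.956 ± 0.279 TPM in IF (adjusted p = 2e-06 and 0.00050). Ccbe1, which supports lymphatic growth, fell from 7.51 ± 1.59 TPM in control to 1.35 ± 0.347 TPM in IF (log2 fold change -2.40 ± 0.23, adjusted p = 1.1e-06), and Pi15, a peptidase inhibitor, from 54.4 ± 5.57 TPM in control to 10.3 ± 1.55 TPM in IF (log2 fold change -2.39 ± 0.12, adjusted p = 1.5e-10).

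The largest rises outside the lists covered enzymes, receptors and regulators. Dio2, the deiodinase that activates thyroid hormone, was at 23.5, 28.6, 17.7, 25.6 and 15.7 TPM in control and 244, 291, 205, 347 and 322 TPM in IF (log2 fold change 3.67 ± 0.27, adjusted p = 3.7e-08). Msc, the repressor musculin, was at 3.36, 38.1, 3.87, 3.41 and 6.82 TPM in control and 73.5, 129.6, 132, 98.3 and 111 TPM in IF (log2 fold change 4.01 ± 0.46, adjusted p = 6.9e-06). Control replicate 2 stood far above the other controls and still below every IF mouse, as the naming rule required. Plk2, a polo-like kinase, rose from 32.3 ± 7.79 TPM in control to 323 ± 47.7 TPM in IF (log2 fold change 3.34 ± 0.34, adjusted p = 1.6e-06). Slc26a7, an anion exchanger, rose from 8.13 ± 1.86 TPM in control to 73.99 ± 23.5 TPM in IF (log2 fold change 3.11 ± 0.31, adjusted p = 1.4e-06). P2ry14, a receptor for UDP-sugars, rose from 13.4 ± 2.56 TPM in control to 119.7 ± 39.7 TPM in IF (log2 fold change 3.10 ± 0.27, adjusted p = 2.5e-07) and Lrtm2, a leucine-rich membrane protein, from 1.06 ± 0.190 TPM in control to 8.87 ± 3.60 TPM in IF (log2 fold change 2.87 ± 0.31, adjusted p = 3.5e-06).

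The naming rule also took the 10 largest gains and losses in mean TPM, and Inhbb and Gadd45g were among the gains by this measure too. Ctla2a, an inhibitor of cathepsin-like proteases, showed the largest loss in mean TPM, at 3944, 7712, 4115, 4659 and 5039 TPM in control and 1316, 907, 1183, 1236 and 1459 TPM in IF (log2 fold change -2.03 ± 0.17, adjusted p = 2.3e-07). Tmsb4x, which binds free actin, fell from 5499 ± 339 TPM in control to 3994 ± 248 TPM in IF (log2 fold change -0.46 ± 0.06, adjusted p = 4.4e-05). Ctsd, the lysosomal protease cathepsin D, fell from 2179.8 ± 846 TPM in control to 1182 ± 140.0 TPM in IF (log2 fold change -0.79 ± 0.20, adjusted p = 0.0087), and S100g, a calcium-binding protein, from 1184 ± 275 TPM in control to 833 ± 173 TPM in IF (log2 fold change -0.50 ± 0.15, adjusted p = 0.022). The immunoglobulin gene Igkc (log2 fold change -2.64 ± 0.77, adjusted p = 0.020) and Ifitm2, an antiviral membrane protein (log2 fold change -0.29 ± 0.09, adjusted p = 0.022), were also among the 10 largest losses. For Ctsd, the call was lost with only the 10 libraries (adjusted p = 0.076). For S100g, the call was lost without IF replicates 2, 4 or 5 (adjusted p = 0.053 to 0.057). For Igkc, the call was lost without control replicate 3 or IF replicate 5 (adjusted p = 0.051 to 0.056), and for Ifitm2, the call was lost without control replicates 1, 3 or 4 or IF replicates 3 or 5 (adjusted p = 0.051 to 0.061). On the other side Dcn gained most, followed by the cytoskeletal actin gene Actg1, from 2134 ± 367 TPM in control to 3046 ± 358 TPM in IF (log2 fold change 0.53 ± 0.12, adjusted p = 0.0034). Igfbp4 and Igfbp7, which bind insulin-like growth factors, rose by 0.77 ± 0.19 and 0.55 ± 0.10 (adjusted p = 0.0060 and 0.00037), and the calcification inhibitor Mgp by 0.44 ± 0.14 (adjusted p = 0.033). Igfbp4 was not called with only the 10 libraries (adjusted p = 0.057). Col6a1, Ifitm1 and the protease gene Ctsb rose by 0.50 ± 0.15, 0.62 ± 0.14 and 0.57 ± 0.08. For Mgp, the call was lost without control replicates 2 or 4 or IF replicates 1, 2 or 5 (adjusted p = 0.053 to 0.10), and for Col6a1, the call was lost without IF replicates 4 or 5 (adjusted p = 0.057 to 0.07).

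Cell cycle and DNA replication genes gave 1 call among 36 tested, Mcm7, a subunit of the replicative helicase, which fell from 64.6 ± 12.6 TPM in control to 45.4 ± 4.74 TPM in IF (log2 fold change -0.49 ± 0.11, adjusted p = 0.0044). That count depended on control replicate 2, in which the list summed to 265 TPM, the lowest of the 10 mice. Without this mouse 15 of the 36 fell and the median went from 0.19 to -0.30. Without control replicate 2 and IF replicate 3 there were 13 that fell and 1 that rose, and the median was -0.07. Mki67 differed by 0.86 ± 0.49 with an interval of -0.17 to 1.88 (adjusted p = 0.23). Of 24 genes of cholesterol synthesis and its control, none rose, 7 fell and 17 were not called, and 11 fell without control replicate 2, alone or with IF replicate 3. Dhcr7, an enzyme of the last steps of cholesterol synthesis, was at 24.6, 9.37, 24.4, 25.4 and 20.2 TPM in control and 13.9, 12.9, 10.96, 14.1 and 11.3 TPM in IF (log2 fold change -0.64 ± 0.20, adjusted p = 0.030). Control replicate 2 was the lowest of the 10 mice, and the call was lost without control replicates 1, 3, 4 or 5 or IF replicates 3 or 5 (adjusted p = 0.053 to 0.085).

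**Figure D5:**
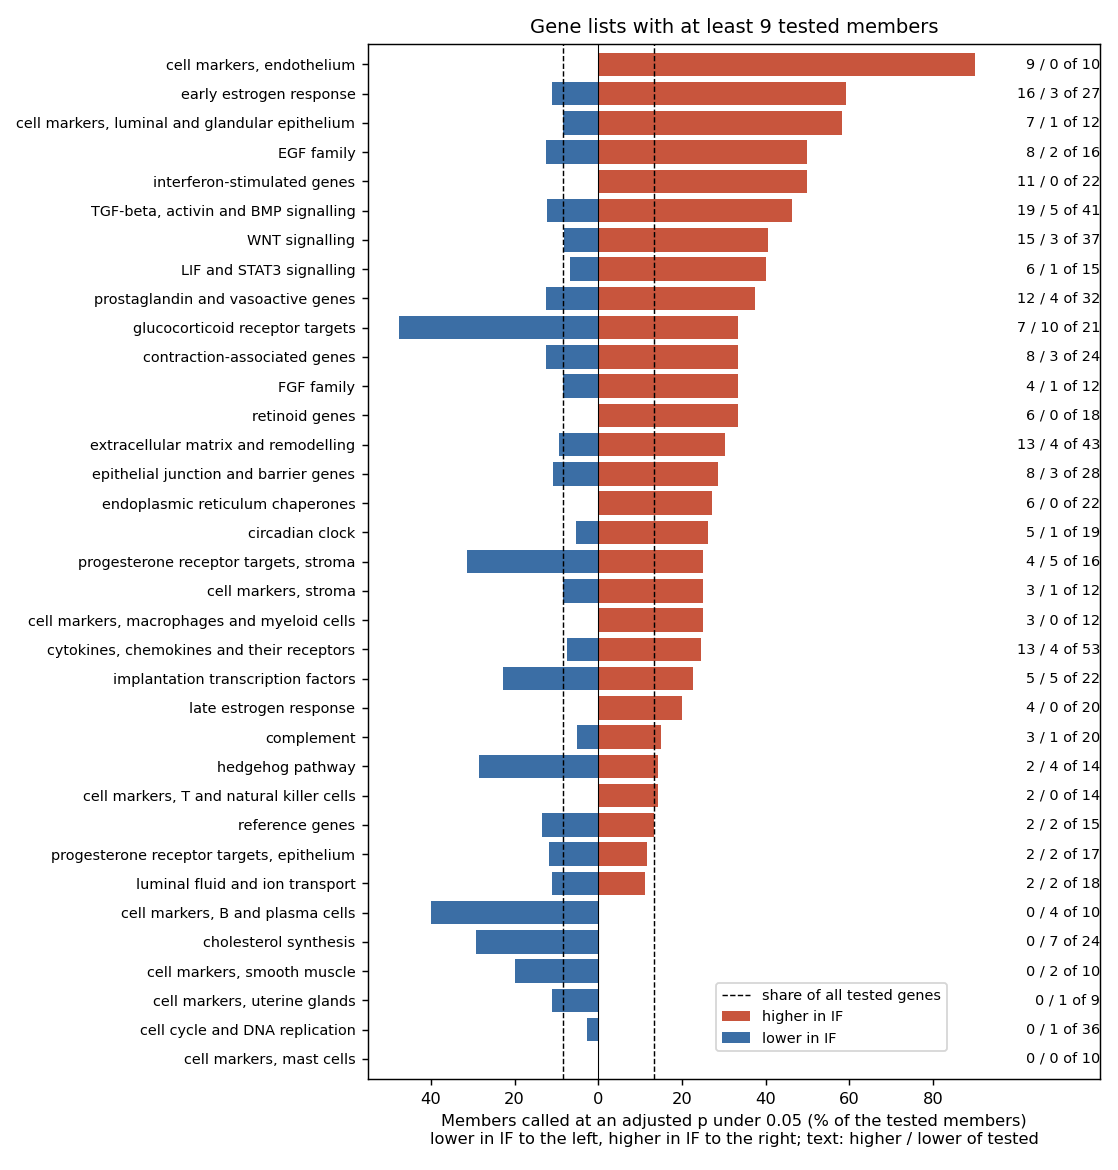
Percent of each list's tested members that were higher (to the right) or lower (to the left) in IF at an adjusted p under 0.05, for lists with at least 9 tested members. Dashed lines mark the 13.4% higher and 8.53% lower among all tested genes.

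The remaining lists were read against the same shares. Of 22 endoplasmic reticulum chaperone and stress genes, 6 rose, none fell and 16 were not called, and the number that rose was 3 without IF replicate 5. The chaperones Hspa5, Hsp90b1 and Calr were not called, and Trib3, a stress-induced pseudokinase, rose from 4.85 ± 0.869 TPM in control to 11.1 ± 3.10 TPM in IF (log2 fold change 1.14 ± 0.19, adjusted p = 0.00024). Of 18 retinoid genes, 6 rose, none fell and 12 were not called. Without control replicate 2, alone or with IF replicate 3, 2 of them fell. Aldh1a3, which makes retinoic acid, rose (log2 fold change 1.93 ± 0.43, adjusted p = 0.0036). Cyp26b1, which degrades it, also rose (log2 fold change 1.52 ± 0.49, adjusted p = 0.033), although the call was lost without control replicates 3, 4 or 5 or IF replicates 1, 3 or 5 (adjusted p = 0.052 to 0.096). Of 19 clock genes, 5 rose, 1 fell and 13 were not called (2 fell without IF replicate 3). Bhlhe40 rose from 20.5 ± 5.11 TPM in control to 57.2 ± 12.3 TPM in IF (log2 fold change 1.48 ± 0.29, adjusted p = 0.0011) and Arntl, which encodes BMAL1, from 8.66 ± 1.07 TPM in control to 15.4 ± 2.73 TPM in IF (log2 fold change 0.82 ± 0.12, adjusted p = 0.00011). Of 18 genes of luminal fluid and ion transport, 2 rose, 2 fell and 14 were not called, near the share among all tested genes. The water channel Aqp1 rose by 0.55 ± 0.14 (adjusted p = 0.0082) and the bicarbonate carrier Slc4a4 fell by 0.49 ± 0.13 (adjusted p = 0.0098). Aqp1 was not called with only the 10 libraries (adjusted p = 0.058). Only 1 gene of this list rose without any 1 of control replicates 1, 3 and 4 and IF replicates 3, 4 and 5, and only 1 fell without any 1 of control replicates 1 and 5 and IF replicates 2, 4 and 5. Of 15 reference genes, 2 rose, 2 fell and 11 were not called, near the shares among all tested genes. Gusb, a lysosomal enzyme, fell (log2 fold change -0.58 ± 0.08, adjusted p = 2.3e-05), Gapdh was at 572 ± 123 TPM in control and 567 ± 98.2 TPM in IF (adjusted p = 0.99), and 4 fell without control replicate 2, alone or with IF replicate 3. Of 5 tested ovary and oviduct markers 1 fell, Ovgp1, the oviduct glycoprotein, from 21.4 ± 2.71 TPM in control to 12.2 ± 5.66 TPM in IF (log2 fold change -0.93 ± 0.30, adjusted p = 0.031), although the call was lost without control replicates 4 or 5 or IF replicates 1, 2 or 4 (adjusted p = 0.056 to 0.089).

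The other RU486-treated mice give each gene's level after the drug in further animals, but they also received cells and were not compared here. Zbtb16 was at 2.42 ± 0.603 TPM in the PBMC group and 4.12 ± 0.400 TPM in the PBMC-hCG group, and Fkbp5 at 11.6 ± 1.51 TPM and 9.40 ± 1.52 TPM. Pgr was at 117 ± 19.5 TPM and 114 ± 25.7 TPM. Inhbb was at 246 ± 183 TPM and 167 ± 136 TPM, and Oxtr at 73.8 ± 58.4 TPM and 38.4 ± 28.7 TPM.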

How the data were processed

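RNA from 1 uterine horn per mouse (5 mice in each of 4 groups) was sequenced by the authors on an Illumina instrument after TruSeq Stranded mRNA preparation. The submitters' processing notes name Trimmomatic, HISAT2, StringTie and mm10, and the deposited table holds TPM (scaled to transcript length and library total) per gene and mouse, without read counts, so the depth and its counting error are unknown. The test took log2(TPM + 0.1) of every gene listed above 0 in each of the 20 libraries, in limma 3.58.1 (R 4.3.3) with 4 group means, a variance trend and Benjamini-Hochberg adjustment. A fold change on this scale understates the change of low genes. In a simulation with known changes, 75 of 100 genes changed by 1 and 98 of 100 changed by 2 on the log2 scale were called. There were 10 false calls among unchanged genes. The simulated noise was normal and independent between genes, and no simulated mouse stood apart over many genes as control replicate 2 did. Far fewer genes were changed in the simulation than were called in the data, and the adjustment of p depends on how many genes change. The shares called and the number of false calls may therefore not hold for the real libraries. Members and gene lists were chosen with earlier results of these data known.

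Named genes were the 15 largest rises and 15 largest falls among called genes with a mean of at least 2 TPM and groups that did not overlap (immunoglobulin and T cell receptor segments and predicted genes only counted), the 10 largest rises and falls in mean TPM, a list of receptors and implantation genes, and up to 3 called members per gene list. Others, such as Mt1, Mt3, Krt83, Krt87, Igf1, Myc, Ccnd1, Wnt7a, Errfi1, Foxo1, Gli2, Gli3, Gas1, Prap1, Prss28, Adipoq, Phgdh, Cth, Trim63, Gnmt, Slc10a6, the further list members given in passing, and the genes of the last section, were chosen after their values were seen. The alternatives changed the pseudocount, the filter, the scaling, the samples, the variance model, the replicate block and the mice. Nothing in the labels says more of the mice than their number, so p-values measure the spread between these samples. Some genes that the rule names are not reported here.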

Additional observations from a re-analysis of the deposited data

Results flagged for a closer look

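For the genes named here, groups of 5 mice were searched for a mouse apart from the others on the log2 scale of the test. In 37 of 346 groups, the gap between the highest or lowest mouse and its nearest neighbour was more than 0.71 of the range. The 346 also count groups in which every mouse was below 1 TPM, which were not searched. Chance alone gives about 1 such group in 20 for independent groups. These groups share the same mice, and some genes were chosen after their values were seen, so the number is only a description. The values below are in TPM, where the gap of a lowest mouse can be a smaller share of the range. For Areg, a listed 0 was set apart only by the pseudocount on the log2 scale. Of the 37, 26 were among control mice and 11 among IF mice, and 24 were in control replicate 2 and 6 in IF replicate 3. IF replicate 3 was apart as the highest mouse of its group, in TPM, for S100g 1134. IF replicate 3 was apart as the lowest mouse of its group, in TPM, for Tmsb4x 3564, Igfbp4 895, Ihh 8.02, Ccnd1 17.8 and Cck 1.31. IF replicate 5 was apart as the highest mouse of its group, in TPM, for Cldn7 149.7 and Adipoq 4.45. IF replicate 5 was apart as the lowest mouse of its group, in TPM, for Angptl7 22.9, Slc26a7 32.1 and Hoxa11 72.3. Control replicate 2 was apart as the highest mouse of its group, in TPM, for Msc 38.1, Ramp3 77.0, S100g 1665, Hoxa10 281, Greb1 21.3, Padi4 8.55, Aqp1 385 and Mt3 30.5. Control replicate 2 was apart as the lowest mouse of its group, in TPM, for Mt2 274, Actg1 1495, Igfbp4 437, Col6a1 659, Areg 0, Stat3 104, Mki67 1.14, Dhh 0.537, Dhcr7 9.37, Arntl 6.78, Lum 214, Ccnd1 27.8, Gli3 5.21, Phgdh 20.8, Shmt1 17.9 and Mthfd2 3.72. Control replicate 5 was apart as the highest mouse of its group, in TPM, for Fgf2 8.75. Control replicate 5 was apart as the lowest mouse of its group, in TPM, for Cldn3 188.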

How the results depend on the processing

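Counts were compared as higher, lower, at least 2-fold higher and at least 2-fold lower. With a pseudocount of 1 the 2-fold counts were 205 and 165. With only the 10 control and IF libraries 1556 genes were higher and 917 lower. With array quality weights 2995 were lower and 466 were 2-fold lower. Groups that did not overlap, in place of the p, gave 1600 higher, 798 lower, 257 at least 2-fold higher and 196 at least 2-fold lower, of which 194 also passed the test. With 1 mouse left out the counts ran from 2134 to 2698, from 1167 to 2314, from 338 to 423 and from 240 to 390. Without control replicate 2 and IF replicate 3, chosen after seeing the data, they were 2425, 2185, 374 and 407, and 52.6% of calls were higher. With the replicate number as a block they were 2496, 1657, 366 and 313. Same-numbered mice did not deviate together (r = 0.135, -0.222, -0.247, 0.117 and 0.396), and 1 of 5 controls correlated best with its own number, so the number was not taken as a pairing. With the block Msx1 was called (-0.43, adjusted p = 0.046). Ltf turned to 0.065 with array quality weights. With 1 mouse left out Ihh ran from -0.0091 to 1.01, Gli1 from -0.18 to 0.074, Ltf from -0.62 to 0.21 and Prap1 from -0.22 to 2.42. Of 165 named genes, 119 kept their direction and side of the threshold under every alternative, 31 lost a call under at least 1, 12 gained one and 4 changed sign, with 1 gene in 2 of these classes. The cause was not tested. Depth cannot be read from TPM.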

Other observations

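Genes of serine synthesis and one-carbon metabolism, chosen after their values were seen, were lower in part. Phgdh, the first enzyme of serine synthesis, was at 65.4, 20.8, 58.7, 57.7 and 75.9 TPM in control and 12.0, 11.6, 7.33, 12.2 and 9.94 TPM in IF (log2 fold change -2.28 ± 0.27, adjusted p = 9.1e-06). Cth, which makes cysteine, fell from 19.6 ± 6.16 TPM in control to 3.56 ± 0.536 TPM in IF (log2 fold change -2.38 ± 0.22, adjusted p = 6e-07). Shmt1, Shmt2 and Mthfd1, which move one-carbon units onto folate, fell by 0.90, 0.79 and 0.78 on the log2 scale (adjusted p = 0.00047, 4.8e-05 and 1.1e-05). Psat1, Psph, Mthfd2 and Cbs of the same routes were not called (adjusted p = 0.23, 0.057, 0.15 and 0.36). Without control replicate 2, Psat1, Psph and Mthfd2 were called lower (log2 fold change -1.02, -0.58 and -1.50, adjusted p = 0.0025, 0.0013 and 0.00046), and also without control replicate 2 and IF replicate 3 (adjusted p = 0.0065, 0.0036 and 0.00065). With array quality weights all 4 were called lower (adjusted p = 0.0094, 0.0047, 0.00093 and 0.0017). Among neuropeptide genes, also chosen after their values were seen, Penk, the proenkephalin gene, fell from 235 ± 26.7 TPM in control to 115 ± 37.1 TPM in IF (log2 fold change -1.08 ± 0.14, adjusted p = 2.3e-05) and Tac2, which encodes neurokinin B, from 33.3 ± 14.2 TPM in control to 9.89 ± 4.42 TPM in IF (log2 fold change -1.73 ± 0.32, adjusted p = 0.00077).

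The requirement of a value above 0 in all 20 libraries left out 10392 genes that were above 0 in at least 1 of the 10 libraries. Among them were 174 genes whose control and IF values did not overlap, 85 higher and 89 lower in IF, of which 24 had a mean above 2 TPM in a group. Among tested genes, 12.8% did not overlap, a far larger share. The 174 genes were not tested, some of them, such as Tdo2 and Calb2, because of a 0 in the other 10 libraries alone. Tdo2, a tryptophan-degrading enzyme known from decidua, was listed at 12.9, 5.66, 7.72, 10.6 and 63.3 TPM in control and 0.326, 0.455, 0.153, 0.322 and 1.17 TPM in IF. Calb2, the calcium-binding protein calretinin, was listed at 8.50, 6.57, 7.48, 9.79 and 10.9 TPM in control and 1.35, 0.158, 0.676, 0.869 and 0.708 TPM in IF. Nr0b2, an orphan nuclear receptor, was listed at 0.132, 0.839, 0.528, 0 and 0.318 TPM in control and 1.88, 4.57, 2.55, 6.51 and 6.26 TPM in IF. The peptide genes Pnoc, Trh and Cck were each higher in all 5 IF mice, with Pnoc listed at 0.303, 0, 0.0885, 0.218 and 0.116 TPM in control and 3.41, 2.34, 1.84, 3.22 and 10.7 TPM in IF.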
